A study of Mus musculus with 6 samples.

Results

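Genes of the lysosome were followed in the livers of C57BL/6 mice, an inbred laboratory strain, that had eaten a high fat diet (HFD) or a regular diet (RD) for 2 days with free access to food. The list holds 48 genes chosen by name for hydrolytic enzymes, membrane proteins and the proton pump, out of 19938 genes tested. A member was read from the probe set to which the platform's annotation gives its symbol alone, and each of the 48 had exactly 1 such probe set. By class they were 12 cathepsins, 9 glycosidases, 3 sulfatases, 7 lipid and protein hydrolases with their cofactors, 9 membrane proteins, 7 subunits of the vacuolar proton pump (V-ATPase) and the transcription factor Tfeb.

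The HFD group held 3 mice and the RD group 3, named as biological replicates in the series' design, and each liver was measured on an array of its own. The mice's age and sex and the make-up of the diets are not stated in the labels, so a difference belongs to the whole diet and not to fat alone. Sample titles of both groups carry the letters NI with no explanation, so a condition common to all the mice may be present. Expression is given as log2 signal, and every difference is HFD minus RD on that scale, where a difference of 1 is a doubling of signal. Signals of different genes come from different probes and are not compared with each other. The RNA is from whole liver, in which fewer cells of a type and less RNA per cell cannot be told apart.

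Lysosomes are acidic compartments in which proteins, glycans and lipids from endocytosis and autophagy are broken down. The V-ATPase pumps protons into them, with a cytosolic V1 sector that splits ATP and a membrane V0 sector that carries the protons. Most of the hydrolases work only at the acid pH that the pump maintains. Many lysosomal genes share a CACGTG-type promoter element bound by TFEB and its relatives, and in the liver hepatocytes and resident macrophages, the Kupffer cells, are both rich in lysosomes.

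Array medians over all probe sets lay between 7.06 and 7.08 in HFD and between 7.06 and 7.11 in RD. Of 9 hepatocyte markers 0 passed the test in limma, 0 had an unadjusted p under 0.05, and their median difference was 0.00. Their summed linear signal ran from 153119 to 158271 in HFD and from 156173 to 158280 in RD. HFD replicate 1 held the highest of the 6 values for 27 of the 48 members, while RD replicate 1 held the lowest for 22. The same counts over all genes are not given, so whether these arrays differ for the members in particular is not known. All 5 measured markers of cholangiocytes, the bile duct cells, were higher in HFD, with summed signals of 1404 to 1494 in HFD and 1003 to 1098 in RD. That count fell to 0 without RD replicate 1 and to 1 without any other single array. Of 10 markers of monocytes and neutrophils 2 were higher, with sums of 931 to 1220 in HFD and 713 to 753 in RD. In the lists for dendritic cells, B and T cells, sinusoidal endothelium, stellate cells, adipocytes and erythroid cells 0 passed. Sums for dendritic cells were 1039 to 1348 in HFD and 1032 to 1119 in RD. Those for B and T cells were 1086 to 1588 and 1124 to 1191, and HFD replicate 1 was highest in both lists. Among all genes 3.11% were called higher. No marker in these lists was at 0, but the lowest value in the table was 2.28, so that count does not bear on detection.

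After 2 days of HFD, 2 of the 48 genes differed from RD past the threshold, in opposite directions. Atp6v0d2, a subunit of the V0 sector of the proton pump, fell 2.96-fold, and Cd68, a glycoprotein of macrophage endosomes and lysosomes, rose 1.52-fold. The other 46 did not pass (limma, Benjamini-Hochberg adjusted p under 0.05 over all genes, two-sided). The share called, 4.17%, was close to the 5.35% called among all genes, with 1 higher against a background of 3.11% and 1 lower against 2.24%. By this count the lysosomal genes as a list were not called more often than the rest of the genes on the array.

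Over the whole list, the 2 called genes included, most differences were small and positive. Of the 48 members 36 had a positive difference, with a median of 0.10 and an interquartile range of 0.01 to 0.23, where all genes had a median of 0.00 and an interquartile range of -0.09 to 0.09. At an unadjusted p under 0.05 there were 14 higher and 2 lower members, 33.3% of the list, against 19.7% of all genes (11.0% higher and 8.65% lower). The 3 HFD arrays lay wholly above the 3 RD arrays for 18 members and wholly below for 4. Together these were 45.8% of the list, against 25.7% of all genes (14.0% above and 11.7% below). Standard errors ran from 0.06 to 0.23. Of the 46 genes that did not pass, 23 had a 95% interval within 0.3 of 0 and 38 within 0.5 of 0, so for 8 a difference of 0.5 or more is within the interval. Without HFD replicate 1 the median was 0.07 and 33 differences were positive.

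**Figure D1:**
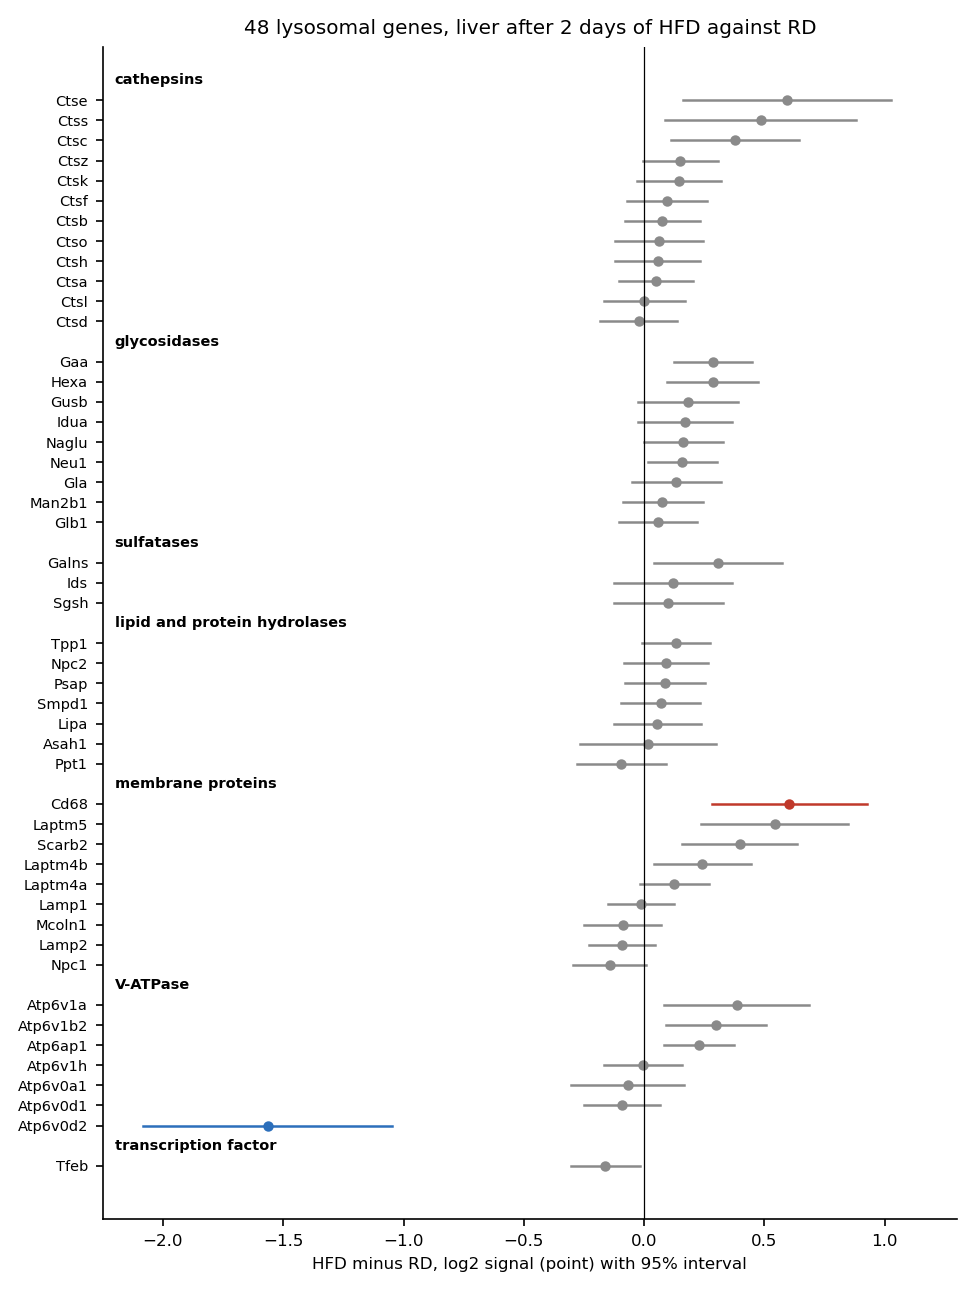
Difference of HFD minus RD in log2 signal (horizontal axis) for the 48 genes, by class from cathepsins to Tfeb, with the limma estimate as a point and its 95% interval as a line. Red and blue mark an adjusted p under 0.05 with HFD higher or lower: Cd68 at 0.60 is the single red gene and Atp6v0d2 at -1.56 the single blue one, far from the other 46, which lie between -0.16 and 0.59.

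The fall of Atp6v0d2 (probe set 10511779) was the 18th largest among the 19938 genes. Its protein, the d2 form of the stalk subunit that joins V0 to V1, is best known from osteoclasts and macrophages, whereas the d1 form is found in most cells. Log2 signals of Atp6v0d2 were 6.30, 5.85 and 6.68 on the HFD arrays, against 7.48, 7.85 and 8.20 on the RD arrays. Every HFD array was below every RD array. The means were 6.28 ± 0.42 in HFD and 7.84 ± 0.36 in RD (SD, n = 3 each), a difference of -1.56 ± 0.23 (SE; limma adjusted p = 0.00801; 95% interval -2.08 to -1.05). It remained past the threshold when any 1 array was left out, with differences of -1.77 to -1.35. When every row of the table was tested, unnamed probe sets included, its adjusted p was 0.054, so the call was lost there. All 3 HFD values were below their array's median over genes, 7.53 to 7.56, and RD replicate 1 was just below its own, 7.507. The probe set is therefore dim on those arrays. Detection calls were not used here, and a level at background would understate the fold.

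The d1 form was not called. Atp6v0d1 had signals of 11.24, 11.28 and 11.18 in HFD and 11.33, 11.39 and 11.25 in RD, a difference of -0.09 ± 0.07 with a 95% interval of -0.25 to 0.07 (limma adjusted p = 0.532). These values overlap. Atp6v0a1, the large V0 subunit through which protons enter and leave, had -0.07 ± 0.10.

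In the V1 sector the members with the catalytic site had positive differences that did not pass. Atp6v1a, the catalytic A subunit, had signals of 11.29, 11.31 and 11.06 in HFD and 10.75, 10.63 and 11.13 in RD, with a difference of 0.38 ± 0.13 (limma adjusted p = 0.149). RD replicate 3 reached into the HFD range, and without it Atp6v1a passed, at 0.53 (adjusted p = 0.0395). Atp6v1b2, the B subunit that alternates with A in the ATPase ring, had 10.88, 10.75 and 10.94 in HFD and 10.39, 10.64 and 10.65 in RD. Its groups did not overlap, and its difference of 0.30 ± 0.09 missed the threshold (limma adjusted p = 0.112). Atp6v1h, a regulatory V1 subunit, had a difference of 0.00 ± 0.07 with an interval of -0.17 to 0.16. Atp6ap1, an accessory protein needed for assembly of the pump, had 12.16, 12.09 and 12.08 in HFD and 11.89, 11.92 and 11.84 in RD. The HFD arrays were all higher, by 0.23 ± 0.06 on average, and the adjusted p was 0.0854 in limma.

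The other 18 measured subunits of the pump, none of them a member, gave 3 that rose and 0 that fell, 16.7% called against 5.35% of all genes, with a median of 0.20. Atp6v1f, a subunit of the central rotor, rose by 0.32 ± 0.07 (limma adjusted p = 0.0339). Atp6v1e1, a stator subunit, rose by 0.30 ± 0.07, and the accessory protein Atp6ap2, also called the prorenin receptor, by 0.49 ± 0.11. Atp6v1g1, another stator subunit, had 0.38 ± 0.11 and did not pass (limma adjusted p = 0.0866). The call of Atp6v1f or Atp6v1e1 did not survive dropping any single array, and that of Atp6ap2 was lost except without HFD replicate 3, so this count was 1 without HFD replicate 3 and 0 without any other single array. Over all 25 subunits, 2 of 13 V1 genes rose and 0 fell (median 0.27), and 0 of 9 V0 genes rose and 1 fell (median 0.04). Of the 3 accessory genes 1 rose (median 0.23). That median is the value of Atp6ap1l, whose signals, 3.72 to 4.20, were far below the median over genes on every array. This grouping by sector was chosen after the values were seen.

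**Figure D2:**
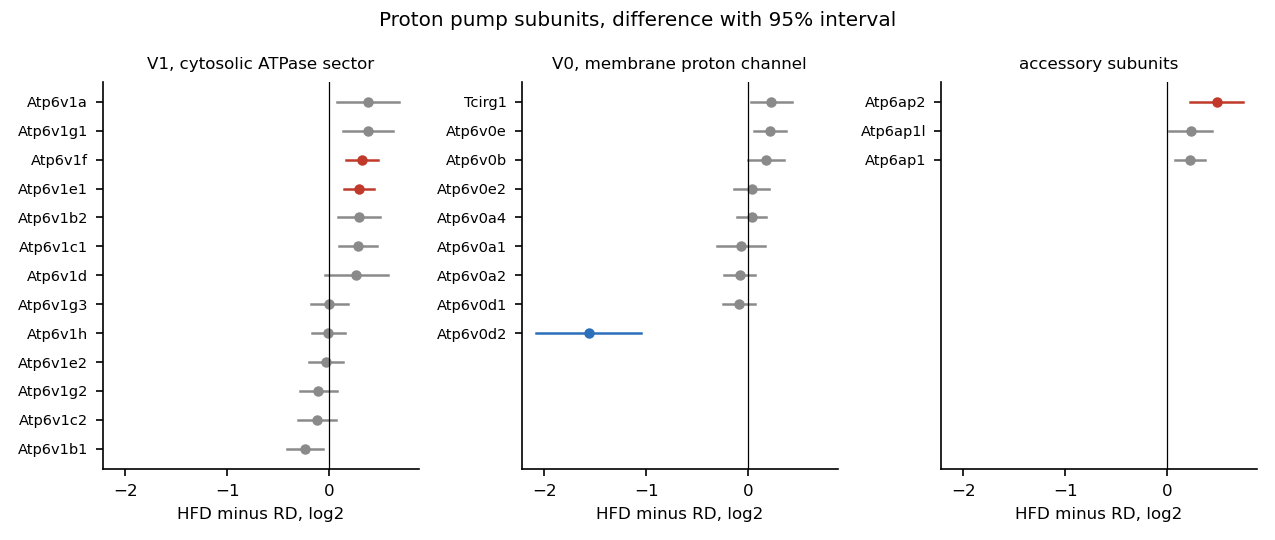
Difference of HFD minus RD in log2 signal (horizontal axes) with 95% intervals for 25 genes of the proton pump, in panels for the V1 sector, the V0 sector and accessory subunits, with red and blue for genes past the threshold. Atp6v0d2 at -1.56 lies apart, while the other V0 genes lie between -0.09 and 0.23 and the V1 genes between -0.23 and 0.38.

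Among the membrane proteins the differences split by gene. Cd68 (probe set 10387536) had signals of 10.72, 10.12 and 10.28 in HFD, against 9.68, 9.80 and 9.83 in RD. Every HFD array was above every RD array, and HFD replicate 1 was the highest. The means were 10.38 ± 0.31 in HFD and 9.77 ± 0.08 in RD (SD, n = 3 each), a difference of 0.60 ± 0.14 (SE; limma adjusted p = 0.0463). The call held without HFD replicate 2 (adjusted p = 0.0314) and was lost without HFD replicate 1 or 3 or RD replicate 1, 2 or 3 (adjusted p = 0.0502, 0.0848, 0.156, 0.126 and 0.0958), with differences of 0.43 to 0.73. The number of members that rose was therefore 0 without HFD replicate 1 or 3 or RD replicate 1 or 2, 2 without HFD replicate 2 (Cd68 and Laptm5) and 1 without RD replicate 3 (Atp6v1a). It was 6 when the brighter genes alone were tested, 5 with an intensity trend and a robust prior, 0 with the replicate number as a block and 0 with every row of the table tested. The call of Cd68 was also lost with the block (adjusted p = 0.0817), with array weights (0.0527) and with every row tested (0.14).

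Laptm5, a lysosomal membrane protein of blood cells that promotes the breakdown of antigen receptors, came next. It had 11.46, 10.90 and 11.05 in HFD and 10.54, 10.66 and 10.59 in RD, with no overlap. Its difference of 0.54 ± 0.13 missed the threshold (limma adjusted p = 0.0555). Scarb2, the receptor that carries glucocerebrosidase to the lysosome, had 11.77, 11.55 and 11.42 in HFD and 11.08, 11.14 and 11.32 in RD. Its groups too were apart, with 0.40 ± 0.10 and an adjusted p of 0.0697 in limma. The per-array values of Laptm5 and Scarb2, like those of Atp6v0d1, Atp6v1a, Atp6v1b2 and Atp6ap1, are given after their results were seen. Laptm4b and Laptm4a, relatives of Laptm5, had differences of 0.24 ± 0.09 and 0.12 ± 0.06, and neither passed.

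The structural and sterol proteins of the membrane showed no call. Lamp1 and Lamp2, the heavily glycosylated proteins that line the lysosome, had differences of -0.01 ± 0.06 and -0.09 ± 0.06. The 95% intervals were -0.15 to 0.13 for Lamp1 and -0.23 to 0.04 for Lamp2. Lamp2 was lower on every HFD array than on any RD array, with an SD of 0.01 in each group. Npc1, which moves cholesterol out of the lysosome, had -0.14 ± 0.07 and non-overlapping arrays, with an adjusted p of 0.277 in limma. The calcium channel Mcoln1 had -0.09 ± 0.07.

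Markers of macrophages moved with Cd68. Of 15 markers of Kupffer cells and other macrophages 7 rose and 0 fell, 46.7% called against 5.35% of all genes, with a median of 0.61. For 11 of 15 every HFD array was above every RD array, against 14.0% of all genes. Their summed linear signal was 24423 to 32956 in HFD and 19300 to 20233 in RD, 1.44 times higher in HFD by the means, and HFD replicate 1 had the highest sum. The 7 that rose were Slc40a1 (0.61 ± 0.07), Cd5l (0.85 ± 0.12), Timd4 (0.67 ± 0.11), Lyz2 (0.68 ± 0.13), C1qb (0.64 ± 0.13), Adgre1 (0.82 ± 0.17) and Marco (0.89 ± 0.21). Of the 8 that did not pass, C1qa, Clec4f, Mpeg1 and Vsig4 were higher on every HFD array, by 0.26 to 0.67 on average. Folr2 (0.43 ± 0.14), C1qc (0.46 ± 0.18), Csf1r (0.19 ± 0.13) and Cd163 (-0.10 ± 0.13) overlapped between the diets. The count of 7 was 10 without HFD replicate 2, 4 without HFD replicate 3, and 2, 2 and 3 without RD replicate 1, 2 or 3. Their part in the difference of Cd68 was not tested.

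Of the members, 5 are best known from macrophages or osteoclasts: Cd68, Laptm5, Ctss, Ctsk and Atp6v0d2. Both calls in the whole list fall among them, 1 in each direction, and 0 of the other 43 members passed, where 5.35% of all genes did. Of those 43, 27.9% had an unadjusted p under 0.05 (11 higher and 1 lower), against 19.7% of all genes. Their median difference was 0.09. On the HFD arrays the macrophage markers stood on average 0.79, 0.28 and 0.50 above their RD mean. Cd68, Laptm5 and Ctss were likewise highest on HFD replicate 1 and lowest of the HFD arrays on replicate 2. Atp6v0d2, lower in HFD, was lowest on HFD replicate 2 but highest of the HFD arrays on replicate 3. Ctsk, with 6.70, 6.69 and 6.81 in HFD and 6.53, 6.71 and 6.53 in RD, was highest on HFD replicate 3. A highest value on HFD replicate 1 was seen for 27 of all 48 members and is not particular to these genes. These 5 were picked from general knowledge of the genes with earlier results of these data in view, so where the calls fall is description only.

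**Figure D3:**
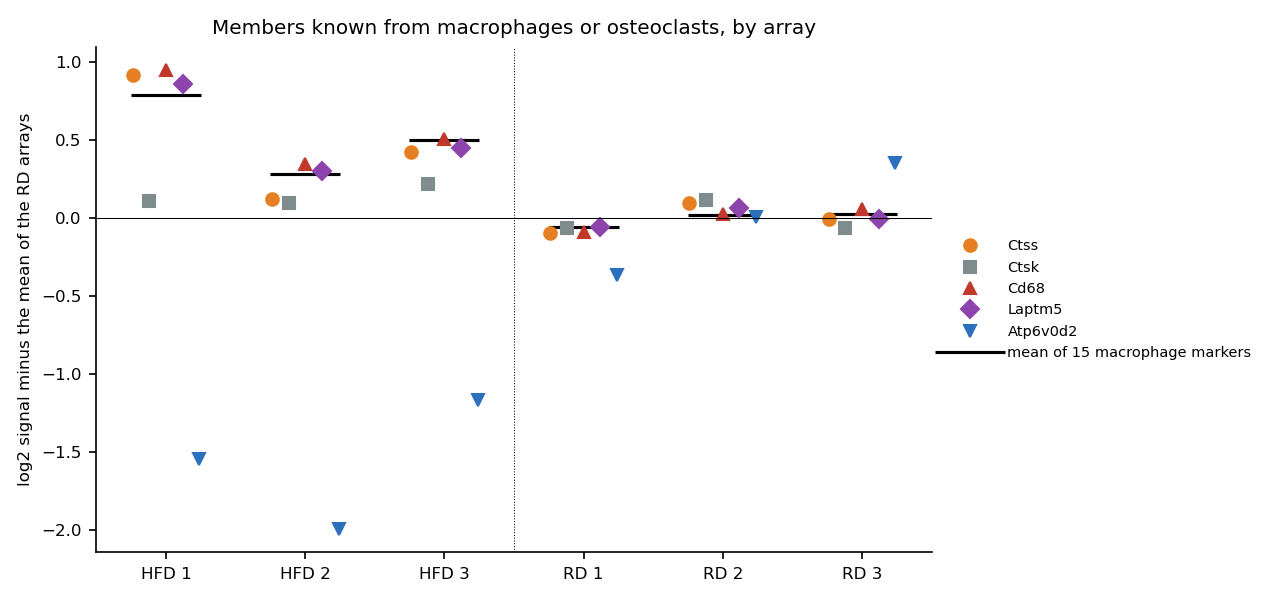
Log2 signal minus the mean of the 3 RD arrays (vertical axis) on each HFD and RD array for 5 members known from macrophages or osteoclasts, with a black bar for the mean of 15 macrophage markers. On the HFD arrays the bar stands at 0.79, 0.28 and 0.50 with Cd68 and Laptm5 near it, whereas Atp6v0d2 lies far below 0 on all 3.

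None of the 12 cathepsins passed in limma, where 5.35% of all genes did. An unadjusted p under 0.05 was seen for 3, all with HFD higher, 25% of the class against 19.7% of all genes. Of the differences 10 were positive, with a class median of 0.08. Ctsc, the dipeptidyl peptidase that activates granule proteases of leukocytes, had signals of 12.47, 12.09 and 12.16 in HFD and 11.69, 11.92 and 11.98 in RD. The groups were apart, by 0.38 ± 0.12 on average (limma adjusted p = 0.113). Ctse, an aspartic protease of immune and gut epithelial cells, had 8.65, 8.04 and 7.99 in HFD and 7.47, 7.94 and 7.50 in RD, with 0.59 ± 0.19 (limma adjusted p = 0.123). HFD replicate 1 was far above the other arrays, and without it the difference of Ctse was 0.38.

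Ctss, the cysteine protease that trims the invariant chain of MHC class II, had 10.01, 9.22 and 9.52 in HFD and 9.0, 9.19 and 9.09 in RD. Its difference of 0.48 ± 0.17 (limma adjusted p = 0.165) was 0.27 without HFD replicate 1. The lowest HFD value lay just above the highest RD value, a gap smaller than the RD spread. Ctsz and Ctsk, a carboxypeptidase and the collagenase of osteoclasts, had 0.15 ± 0.07 and 0.15 ± 0.08.

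The cathepsins that carry most bulk proteolysis showed no detectable difference at this number of arrays. Ctsb, a cysteine protease with both endo- and exopeptidase activity, had 0.07 ± 0.07 with a 95% interval of -0.08 to 0.23. Ctsd, the main aspartic protease, had -0.02 ± 0.07, with -0.18 to 0.14. Ctsl, a cysteine endopeptidase, averaged 12.58 in both groups, with an interval of -0.17 to 0.17. Ctsa, which also protects the sialidase and beta-galactosidase, and Ctsh, an aminopeptidase, had 0.05 ± 0.07 and 0.06 ± 0.08. Ctsf and Ctso had 0.09 ± 0.07 and 0.06 ± 0.08.

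**Figure D4:**
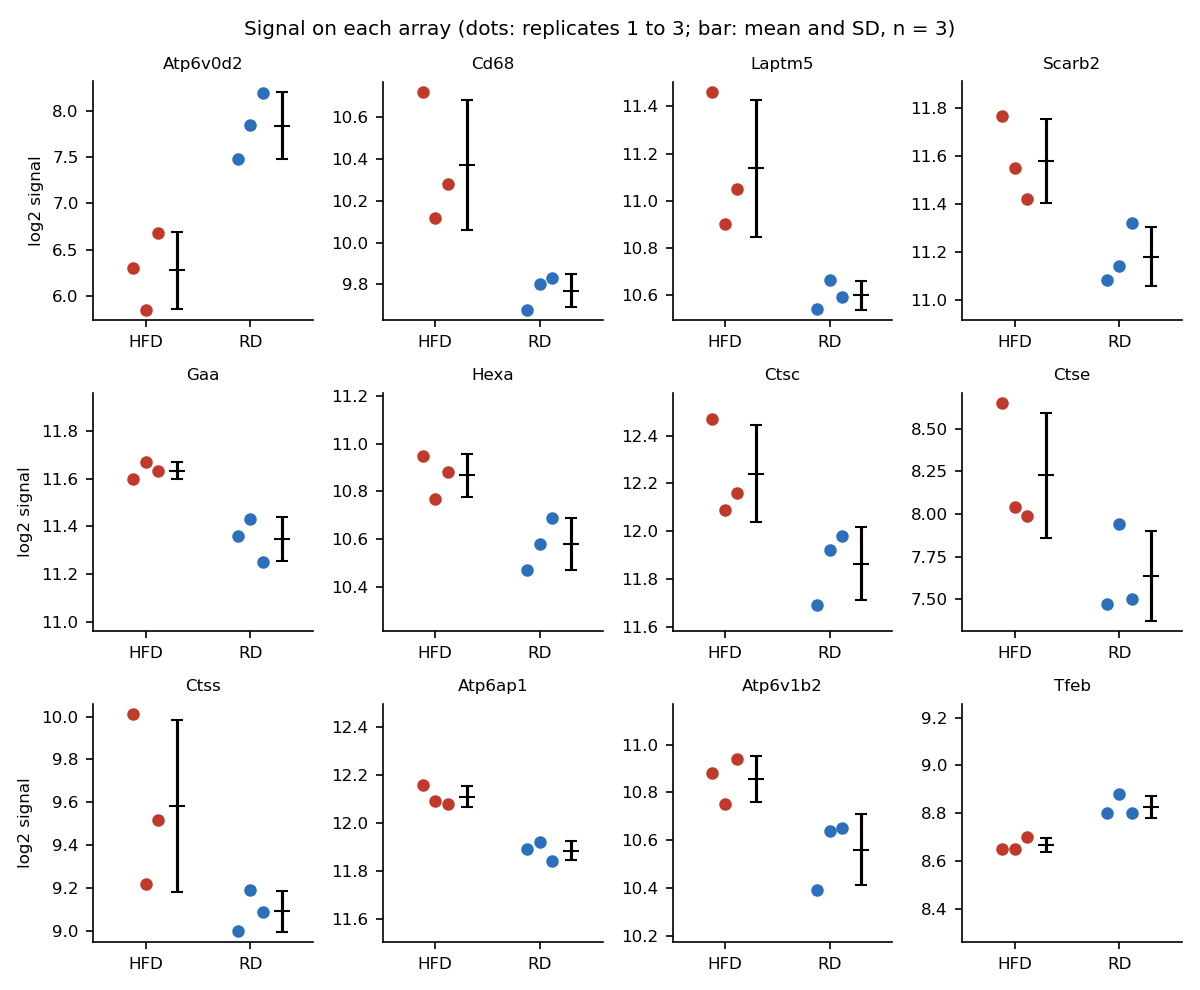
Log2 signal (vertical axes, each spanning at least 1 unit) on the 3 HFD arrays (red) and 3 RD arrays (blue) for 12 members, with the mean and SD of each group as a black bar. Atp6v0d2 and Cd68 passed the test, and HFD replicate 1, the leftmost red dot, is the highest array for Cd68, Laptm5, Scarb2, Hexa, Ctsc, Ctse, Ctss and Atp6ap1.

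All 9 glycosidases had a positive difference, from 0.06 to 0.29 with a median of 0.16, and none passed in limma. An unadjusted p under 0.05 was seen for 3, 33.3% of the class against 19.7% of all genes. For 6 of them, 66.7%, every HFD array was above every RD array, against 14.0% of all genes. Gaa, the acid alpha-glucosidase that degrades glycogen, had signals of 11.60, 11.67 and 11.63 in HFD and 11.36, 11.43 and 11.25 in RD. Both groups were tight, and the difference of 0.29 ± 0.07 missed the threshold narrowly (limma adjusted p = 0.055). It passed when the brighter genes alone were tested (0.0239), with an intensity trend and robust prior (0.0175) and with array weights (0.0446). It did not pass with the replicate block (0.103), with every row tested (0.13) or without any 1 array (0.0865 to 0.153).

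Hexa, the alpha subunit of the hexosaminidase that degrades ganglioside GM2, had 10.95, 10.77 and 10.88 in HFD and 10.47, 10.58 and 10.69 in RD, with 0.29 ± 0.08 (limma adjusted p = 0.0946). Neu1, the sialidase, had 9.42, 9.39 and 9.49 in HFD and 9.27, 9.26 and 9.29 in RD. Its arrays did not overlap, although the mean difference was only 0.16 ± 0.06 (limma adjusted p = 0.205). The enzymes of glycosaminoglycan breakdown Gusb, Idua and Naglu had 0.18 ± 0.09, 0.17 ± 0.09 and 0.16 ± 0.07. The alpha-galactosidase Gla had 0.13 ± 0.08, the alpha-mannosidase Man2b1 0.08 ± 0.07 and the beta-galactosidase Glb1 0.06 ± 0.07.

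The 3 sulfatases, which remove sulfate from glycosaminoglycans, all had positive differences without passing. Over all genes 49.2% had a positive difference and 5.35% passed, and 3 genes are too few to set against those shares. Galns had signals of 8.77, 8.58 and 8.61 in HFD and 8.15, 8.29 and 8.59 in RD, where RD replicate 3 reached the HFD range, and a difference of 0.31 ± 0.12 (limma adjusted p = 0.188). Ids had 9.62, 9.59 and 9.38 in HFD and 9.45, 9.57 and 9.21 in RD, with 0.12 ± 0.11. Sgsh had 8.59, 8.57 and 8.38 in HFD and 8.25, 8.57 and 8.42 in RD, with 0.10 ± 0.10. For all 3 the groups overlapped.

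The lipid and protein hydrolases and their cofactors had differences of -0.10 to 0.13. None of the 7 genes of this class passed in limma or had an unadjusted p under 0.05. The shares over all genes were 5.35% and 19.7%, so a count of 0 in 7 genes says little about the class. Tpp1, a tripeptidyl peptidase, had the smallest p, with signals of 12.30, 12.24 and 12.26 in HFD and 12.15, 12.15 and 12.10 in RD. Its arrays did not overlap, and the difference was 0.13 ± 0.06 (limma adjusted p = 0.279). Psap, the precursor of the saposins that present lipids to hydrolases, had 13.15, 13.00 and 13.08 in HFD and 13.03, 12.91 and 13.04 in RD. Npc2, which binds cholesterol inside the lysosome, had 9.54, 9.31 and 9.40 in HFD and 9.31, 9.36 and 9.31 in RD. Both overlapped between the diets, with differences of 0.09 ± 0.07 for Psap and 0.09 ± 0.08 for Npc2. Lipa, the acid lipase that frees fatty acids and cholesterol from esters, had 0.05 ± 0.08 with a 95% interval of -0.13 to 0.23. Smpd1, the acid sphingomyelinase, had 0.07 ± 0.07, the acid ceramidase Asah1 0.02 ± 0.12 and the thioesterase Ppt1 -0.10 ± 0.08.

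Tfeb, the factor that drives many lysosomal genes, was slightly lower in HFD without passing. Its signals were 8.65, 8.65 and 8.70 in HFD and 8.80, 8.88 and 8.80 in RD. The arrays did not overlap, and the difference was -0.16 ± 0.06 (limma adjusted p = 0.205). Tfe3, its relative and not a member, rose by 0.30 ± 0.06 (limma adjusted p = 0.034), with signals of 10.09, 10.16 and 10.05 in HFD and 9.82, 9.79 and 9.80 in RD. No single array could be dropped without ending that call (adjusted p up to 0.109).

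Promoters were searched for the element that TFEB and its relatives bind, because members with and without it could be set side by side. RefSeq promoters of build GRCm38.p6 were found for 38 of the 48 members, 42 in all, and the 250 bases before the start were searched on both strands. CACGTG was found for 12 of the 38 members (28.6% of their promoters, against 6.02% of 32851 promoters of all genes), and the longer TCACGTG, which contains it, for 10 (23.8% against 3.13%). The AP-1 element TGAGTCA was found for 5 (11.9% against 4.46%), and GAGGAAG, an element of the myeloid factor PU.1, for 6 (14.3% against 10.6%). Such matches describe letters and do not show that a factor binds. Stretches of 6 promoters are given 5′ to 3′ on the gene's strand, chosen for the copies of the element in Lamp1 and Mcoln1, for a major protease, for the glycosidase and the V1 member nearest the threshold or largest in difference, and for the called Cd68. Capitals mark CACGTG with any flanking base that completes TCACGTG on either strand, and TGAGTCA in Cd68.
Lamp1, chr8:13159081-13159160, plus strand: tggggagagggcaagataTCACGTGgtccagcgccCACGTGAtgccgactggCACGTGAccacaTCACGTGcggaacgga
Mcoln1, chr8:3500439-3500518, plus strand: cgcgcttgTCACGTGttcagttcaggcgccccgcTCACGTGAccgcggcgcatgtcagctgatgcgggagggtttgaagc
Ctsd, chr7:142387878-142387957, minus strand: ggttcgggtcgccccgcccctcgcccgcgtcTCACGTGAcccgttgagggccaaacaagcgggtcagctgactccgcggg
Gaa, chr11:119267793-119267872, plus strand: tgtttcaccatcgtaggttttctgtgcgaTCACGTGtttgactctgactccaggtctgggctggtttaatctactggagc
Atp6v1a, chr16:44139350-44139429, minus strand: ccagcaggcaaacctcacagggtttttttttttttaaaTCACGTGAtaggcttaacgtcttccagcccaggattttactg
Cd68, chr11:69666171-69666330, minus strand: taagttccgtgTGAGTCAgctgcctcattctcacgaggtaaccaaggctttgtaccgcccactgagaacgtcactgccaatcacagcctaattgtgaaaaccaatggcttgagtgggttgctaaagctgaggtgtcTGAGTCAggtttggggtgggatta

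Members whose promoter holds CACGTG included no called gene. No promoter was found for the called Atp6v0d2, so it is in neither group here. Their 12 differences ran from -0.09 to 0.38 with a median of 0.08, and 0 passed in limma. The 26 members with a promoter but without CACGTG ran from -0.16 to 0.60 with a median of 0.13, and 1 passed, Cd68. Among all genes 5.35% were called, and groups of this size are too small to compare by such counts. Lamp1, with 4 copies in 80 bases, had a difference of -0.01, and Mcoln1, with 2, had -0.09. Gaa and Atp6v1a, with 1 copy each in the stretches shown, had 0.29 and 0.38. The 5 members with TGAGTCA were Cd68, Glb1, Laptm4a, Neu1 and Psap, with differences of 0.06 to 0.60. Members with and without each motif were not tested against each other.

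Other genes of the lysosomal pathway were described from 7 lists that hold no member. Over 151 measured genes, 14 rose and 5 fell, 12.6% called, beside 5.35% of all genes. Among 28 other hydrolases and cofactors 3 rose and 0 fell (10.7% called, median 0.09). Dnase2a, the acid nuclease, had signals of 10.06, 10.05 and 10.00 in HFD and 9.48, 9.54 and 9.47 in RD, a rise of 0.54 ± 0.06 (limma adjusted p = 0.00275). Lgmn, the asparaginyl endopeptidase that matures cathepsins, rose by 0.58 ± 0.11, and the sphingomyelinase relative Smpdl3b by 0.32 ± 0.08. Signals of Smpdl3b, 6.58 to 7.07, were below the median over genes on every array. Acp5, an acid phosphatase of macrophages and osteoclasts, had 0.23 ± 0.07 and did not pass (limma adjusted p = 0.0856). In this list the call of Dnase2a held without any 1 array, that of Lgmn was lost without RD replicate 1 or 2, and that of Smpdl3b did not survive dropping any single array. The count was 1 without RD replicate 1 or 2.

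Among 25 other membrane proteins and transporters 3 rose and 1 fell, 16% called against 5.35% of all genes (median 0.04). Slc15a3 and Slc15a4, which export peptides and histidine from lysosomes, rose by 0.60 ± 0.09 and 0.40 ± 0.08. Cln3, the membrane protein lost in juvenile Batten disease, rose by 0.35 ± 0.07, and the cation channel Tpcn1 fell by 0.31 on the log2 scale (limma adjusted p = 0.0466). Only the call of Slc15a3 held without any 1 array, and the count of rises was 1 without HFD replicate 1 or any single RD array. The fall of Tpcn1 held only without RD replicate 3. Of 19 genes that deliver enzymes to lysosomes 1 rose, 5.26% called, close to the 5.35% of all genes. It was the sorting receptor Sort1, at 0.43 ± 0.09 (limma adjusted p = 0.0271). That call held only without HFD replicate 3 or RD replicate 3. Ap3b1, Gga2 and Vps29 had -0.25 ± 0.07, 0.29 ± 0.08 and 0.26 ± 0.08 and did not pass.

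Among 20 genes of lysosomal gene control and nutrient sensing 3 rose and 1 fell, 20% called against 5.35% of all genes (median 0.11). Gpnmb, a glycoprotein of macrophages and a target of the TFEB family, rose by 0.59 ± 0.10. Its signals, 6.03 to 6.88, were below the median over genes on every array. Lamtor1, an anchor of the nutrient-sensing complex on the lysosome, rose by 0.38 ± 0.08. Tfe3 was the other riser, and Mtor, the nutrient-sensing kinase, fell by 0.29 on the log2 scale (limma adjusted p = 0.0336). Gpnmb passed without any single HFD array, Lamtor1 only without RD replicate 2, and Mtor in none of the 6 cases. The rises numbered 1 without HFD replicate 1 or 3 or RD replicate 2 and 0 without RD replicate 1 or 3, and the falls numbered 0 without any single array.

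Of 33 autophagy genes measured 1 rose and 3 fell, 12.1% called against 5.35% of all genes, with a median of 0.00. Ulk1, the kinase that starts autophagy, had signals of 11.21, 11.29 and 11.49 in HFD and 11.91, 12.04 and 11.76 in RD, a fall of 0.57 on the log2 scale (SE 0.10; limma adjusted p = 0.018). Wipi1 and Atg7, which act in autophagosome formation, fell by 0.37 and 0.34. The cargo receptor Sqstm1, also a target of the factor NRF2, rose by 0.40 ± 0.08. When 1 array was left out, Ulk1 passed without HFD replicate 3 or RD replicate 3, Wipi1 without HFD replicate 2, Atg7 without HFD replicate 3 and Sqstm1 without RD replicate 3. The falls therefore numbered 0 without HFD replicate 1 or RD replicate 1 or 2, 1 without HFD replicate 2 or RD replicate 3 and 2 without HFD replicate 3. Of 8 cathepsin inhibitors 0 passed in limma and 1 had an unadjusted p under 0.05, Cstb at 0.28 ± 0.10 (adjusted p = 0.154). That is 12.5% of the list, against 19.7% of all genes at an unadjusted p under 0.05. Cst3, Cst6 and Cst9 had 0.12 ± 0.07, 0.14 ± 0.07 and 0.11 ± 0.06.

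**Figure D5:**
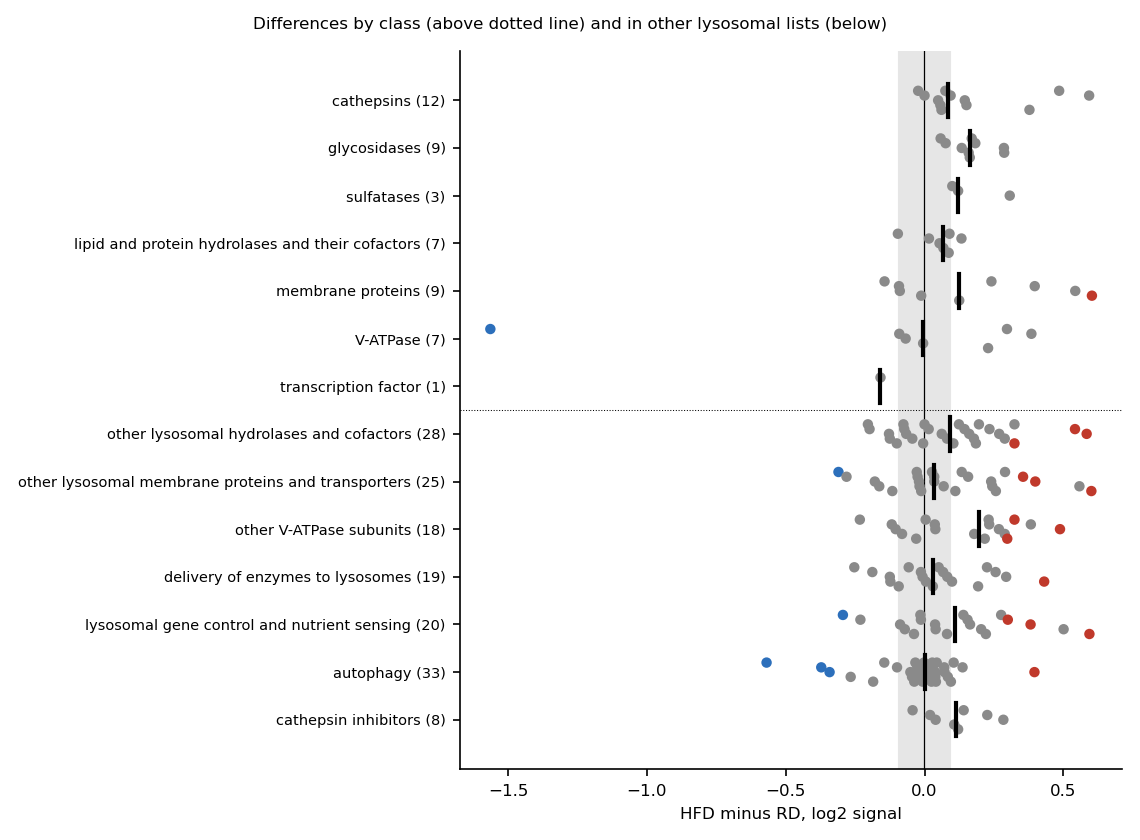
Difference of HFD minus RD in log2 signal (horizontal axis), a dot per gene, for the 7 classes of members above the dotted line and 7 other lysosomal lists below it, with the number of genes in brackets and a thick bar at each median. Red and blue dots passed the test as higher or lower, the grey band is the interquartile range of all genes (-0.09 to 0.09), and class medians run from -0.16 for Tfeb alone to 0.16 for the glycosidases.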

How the data were processed

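The authors deposited 1 table of log2 values for 35512 probe sets on 6 arrays, made in steps that the labels do not name, and base 2 was inferred from the range of 2.28 to 14.86. Values were used as deposited. Per the labels, a GeneChip kit was used for RNA labelling. Platform annotation gave 1 symbol to 21789 probe sets, and the brightest per gene by mean over 6 arrays left 19938 genes. All 48 members matched RefSeq gene IDs, with 0 symbols changed. No dim probe set was removed and no batch is known, and arrays have no depth, so their number limits precision.

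Diet alone was fitted across all genes in limma 3.58.1 (R 4.3.3; lmFit, eBayes), two-sided, with Benjamini-Hochberg adjustment and a threshold of 0.05. The fit was tested on simulated data. Alternatives were other scalings, probe set rules, variance priors, array weights, a replicate block and each array left out. All members are named, with array values for those past the threshold or the 3 of smallest p in a class with none; from other pathway lists up to 4 genes of smallest p are named, and all 15 macrophage markers. Members and lists were chosen with earlier results of these data known.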

Additional observations from a re-analysis of the deposited data

How the results depend on the processing

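With 3 arrays a diet, counts of calls moved readily while directions seldom did. Of 670 member values under alternatives, 626 kept direction and side of the threshold, and 9 members, none with a difference over 0.068 in size, changed sign. Members higher numbered 2 with quantile normalization, median centring or array weights, 6 among brighter genes, 5 with an intensity trend and robust prior, and 0 with every row tested or the replicate block; the range without 1 array was 0 to 2. Members lower numbered 0 among brighter genes, where Atp6v0d2 was not tested, and 0 with every row tested (adjusted p = 0.054). All genes gave 142 higher and 132 lower with every row tested, 318 and 245 with the block, and 197 to 371 and 178 to 273 without 1 array. For all genes the counts were thus lower with fewer samples, with more rows tested and with the block. Why the counts moved was not tested.

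By class, membrane proteins higher were 2 with quantile normalization or centring, 3 among brighter genes or with the trend, 0 with every row or the block, and 0 to 2 without 1 array. Glycosidases higher were 2 among brighter genes and 1 with the trend or array weights. V-ATPase subunits higher were 1 among brighter genes or with the trend and 0 to 1 without 1 array, and lower were 0 among brighter genes or with every row. For other lists, brighter genes gave 5 higher for membrane proteins and transporters, 5 for V-ATPase subunits, 3 higher and 1 lower for enzyme delivery and 5 higher for gene control; the trend gave 1 lower for delivery. With every row tested 1 hydrolase and 1 transporter were higher, and all other counts in these lists were 0. With the replicate block 1 transporter and 1 gene of control were higher, and 0 were called in either direction for transporters lower, V-ATPase, delivery, control lower and autophagy. Centring gave 0 transporters lower. Without 1 array, rises ranged from 1 to 2 for hydrolases, 1 to 3 for transporters, 0 to 1 for V-ATPase, 0 to 1 for delivery, 0 to 2 for control and 0 to 1 for autophagy, and falls 0 to 1 for transporters, 0 for control and 0 to 2 for autophagy.

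Whether the numbers in the titles pair the samples is not known. Deviations from group means correlated at -0.11, 0.00 and 0.12 for same-numbered arrays, and at -0.118 to 0.127 for differently numbered ones. With 3 arrays a diet these values cannot settle whether a pairing exists. The block ended the call of Cd68 (adjusted p = 0.0817). Sign changes were seen for Ctsl (0.018 with quantile normalization, 0.021 with centring, 0.012 with array weights; -0.044 to 0.058 without 1 array), Lamp1 (0.009 with centring; -0.022 to 0.00), Atp6v1h (0.016 with centring, 0.007 with array weights; -0.046 to 0.031), Ctsd (-0.046 to 0.019), Ctsh (-0.009 to 0.114), Ctso (-0.010 to 0.117), Lipa (0.00 to 0.123), Asah1 (-0.092 to 0.112) and Atp6v0a1 (-0.170 to 0.025), each of the last 6 only without 1 array.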
